A study of Arabidopsis thaliana with 4 samples.

Results

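Across 4 leaf RNA sequencing libraries of *Arabidopsis thaliana*, 67 genes were at least 2-fold higher in both libraries labelled 4 °C than in their 20 °C counterparts. They were drawn from 23049 genes with a read in any library, of which 17218 had a mean of at least 1 CPM (count per M reads of the library). Members were chosen by the log2 ratio of 4 °C over 20 °C, with 0.05 CPM added to each level, and every count of genes at least 2-fold apart uses ratios with that addition. That ratio had to reach 1 within the pair labelled Col-0 and within the pair labelled sme1-1. A further 9 genes that met the same rule were left out by name. Because the rule used the ratios between the temperature labels, those ratios are given here as a description, without a test.

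The study profiled the wild-type accession Col-0 and sme1-1, a mutant line in the Col-0 background, as 2-week-old plants in soil under a long photoperiod. Per the labels, 1 library of each genotype came from plants kept at 20 °C under 90 µmol of photons per square metre and second. The other library of each genotype came from plants held for 24 h at 4 °C under 40 µmol, so light and temperature changed together. With 1 library per group there is no replicate, and intervals below are exact 95% intervals for counting error only. The libraries held 44.6 M to 47.2 M uniquely mapped reads, and a gene without a read could still be at 0.0636 to 0.0672 CPM, depending on the library. The leaf markers RBCS1A and LHCB1.3 were at 27229 to 34005 CPM and 23751 to 29266 CPM. A further leaf marker, RCA, was at 9982 and 8824 CPM in the libraries labelled Col-0 and lower, at 3532 and 3658 CPM, in those labelled sme1-1. The seed markers CRA1, OLEO1 and EM6 stayed below 0.2 CPM, and of the root markers PYK10 was at 70.9 to 191 CPM while TIP2-3 and PHT1-1 were below 0.2 CPM. Bulk leaf RNA cannot tell fewer cells of a type from less RNA per cell.

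When Arabidopsis meets cold, CBF transcription factors bind the CRT/DRE element of cold-regulated promoters, and genes such as COR15A, RD29A and KIN1 rise by large factors within a day. Abscisic acid acts on an overlapping set of genes through bZIP factors that bind ABRE elements. The Sm ring is the heptameric protein ring around spliceosomal small nuclear RNAs, SmE is 1 of its subunits, and in plants pre-mRNA splicing shapes the response to cold and to abscisic acid.

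The targeted gene and the cold-regulated genes go against the labels, and each direction below is therefore one between labelled libraries. SME1 (AT2G18740) was at 14.7 and 27.8 CPM in the 20 °C libraries labelled Col-0 and sme1-1, and at 0.679 and 0.919 CPM in the 4 °C libraries with the same labels. It was thus low in both tables in which the members were high, by 21.6-fold (15.2 to 31.9) in the Col-0 pair and 30.3-fold (22.4 to 42.1) in the sme1-1 pair. Its paralogue SME2 (AT4G30330) was between 9.59 and 11.6 CPM throughout. Of 15 measured cold-regulated genes, 0 were at least 2-fold higher at 4 °C in the Col-0 pair and 3 in the sme1-1 pair. At each temperature 14 were past 2-fold upward with the sme1-1 label. Of all genes, 0.784% and 3.13% were higher at 4 °C in those pairs. With the sme1-1 label 8.90% of all genes were higher at 20 °C and 11.7% at 4 °C. The 0 in the Col-0 pair rests on the added 0.05 CPM, since KIN1 (0.852 and 1.72 CPM) and COR413IM1 (4.01 and 8.06 CPM) lay just past 2-fold without it.

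Taken as labelled, the members are genes higher after 24 h at 4 °C in either genotype. A second reading is that the labels of the libraries Col-0 4 °C and sme1-1 20 °C were exchanged. Both tables labelled 4 °C would then come from sme1-1 plants, the members would be genes higher in sme1-1 than in Col-0 at either temperature, and every ratio given below between sme1-1 and Col-0 labels would be one between 4 °C and 20 °C. The values of each library are the same under both readings, and so is the set of members, because the exchange leaves the same 4 libraries compared in the same pairs. No label was changed here, and the exchange itself was not tested.

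The Col-0 pair differed in few genes: 135 of 17218 (0.784%) were at least 2-fold higher in its 4 °C library, against 539 (3.13%) in the sme1-1 pair. Before the 9 named genes were left out, 76 genes met both conditions, 56.3% of the first list and 14.1% of the second. The pairs share no library. The median log2 ratio over the 67 members was 1.55 in the Col-0 pair and 1.92 in the sme1-1 pair, and over all 17218 genes it was -0.03 and 0.03. The ratio was larger in the sme1-1 pair for 46 of the 67 members.

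**Figure D1:**
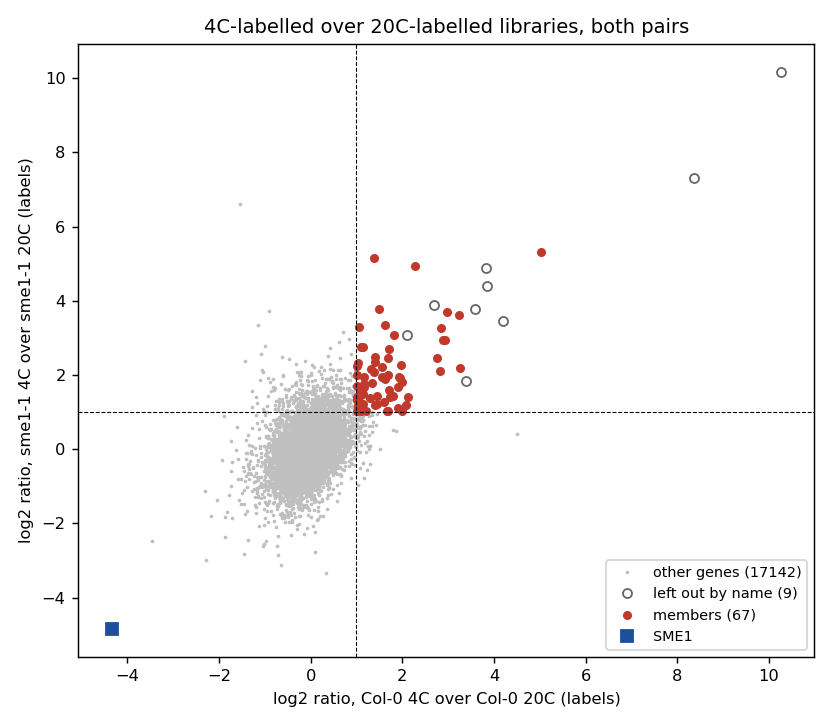
Each point is 1 of 17218 genes, placed by its log2 ratio of 4 °C over 20 °C in the pair labelled Col-0 (horizontal) and in the pair labelled sme1-1 (vertical), with dashed lines at a log2 ratio of 1. The 67 members fill the upper right corner by construction, most of them between 1 and 4 on both axes, and SME1 lies at the opposite corner.

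Most members were weakly expressed genes. Their mean level over the 4 libraries ran from 1.02 to 67.0 CPM with a median of 2.68 CPM, against a median of 14.5 CPM for all 17218 genes. A mean below 5 CPM was found for 47 of the 67, against 23.3% of all genes. Fewer than 50 reads in at least 1 library labelled 20 °C were counted for 46 of them, against 5.28% of all genes. SADHU3-2 was the 1 member with no read in a library, the one labelled Col-0 20 °C. In 54 members the lower of the 4 °C libraries lay above the higher of the 20 °C libraries, as in 10% of all genes, a count that the rule itself favours. In the other 13 the temperature sets overlapped, with a 20 °C library of one genotype label at or above the 4 °C library of the other. Annotated genes overlap 13 members (19.4%), against 32.2% of all genes, and 11 of the 13 are overlapped on the opposite strand. Whether the counting used strand is not given in the sources used here.

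**Figure D2:**
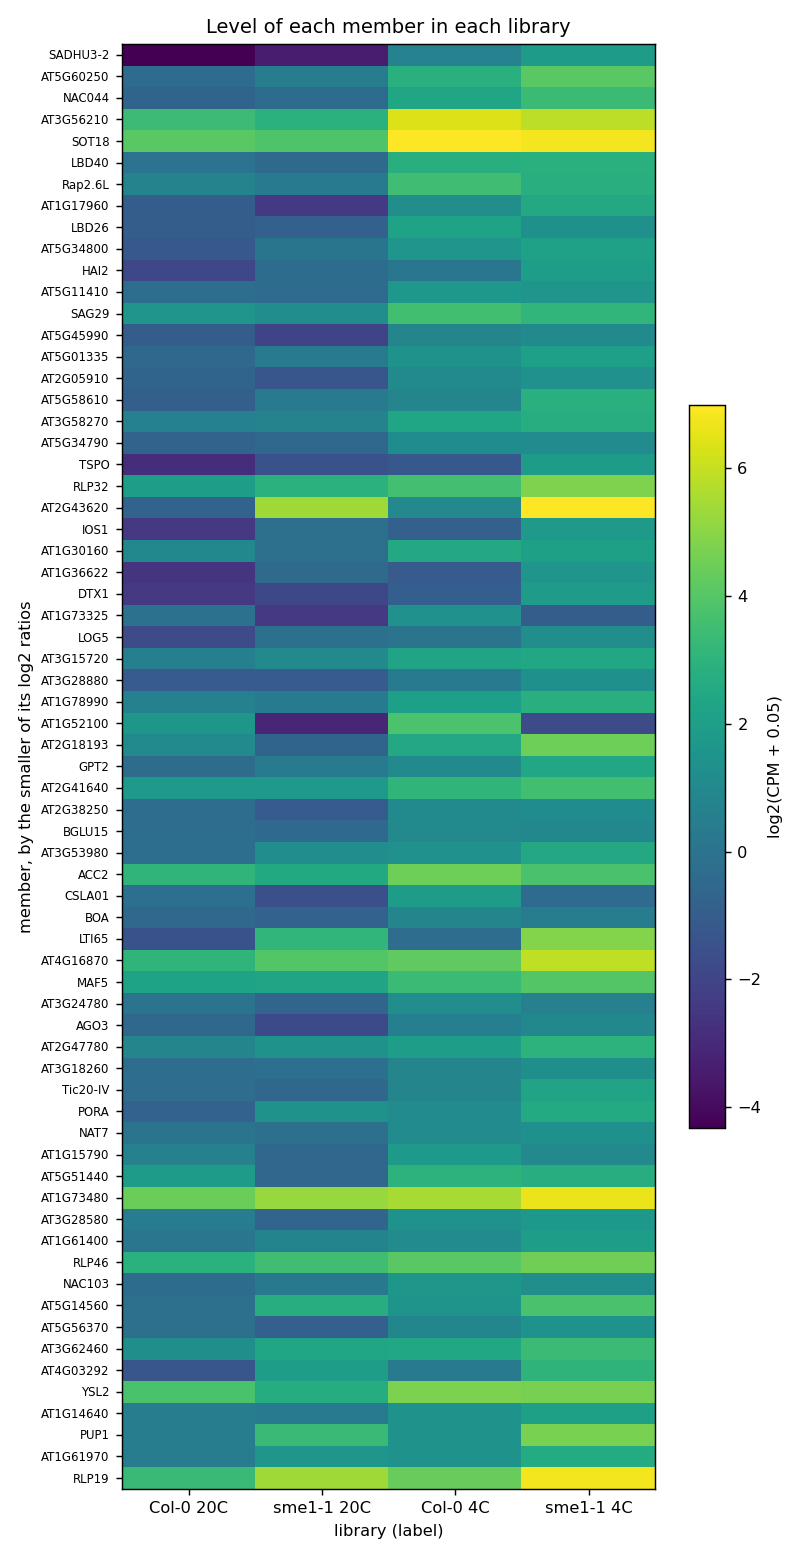
Colour gives log2(CPM + 0.05) of every member (rows, ordered by the smaller of its ratios) in each library (columns, by label). Both 4 °C columns are brighter than the 20 °C column of the same genotype in each row, and AT2G43620, LTI65, RLP19, PUP1 and AT1G52100 also differ sharply between the genotype labels.

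Among the most abundant members, SOT18 (AT1G74090) and AT3G56210 had nearly the same fold in both pairs. SOT18 is a sulfotransferase that completes the core of glucosinolates, defence compounds of the cabbage family. It was at 16.8 CPM (Col-0) and 14.4 CPM (sme1-1) at 20 °C and at 125 CPM (Col-0) and 112 CPM (sme1-1) at 4 °C, so both 4 °C libraries stood far above both 20 °C libraries. The folds were 7.46 (6.91 to 8.06) in the Col-0 pair and 7.75 (7.14 to 8.42) in the sme1-1 pair. Its relatives SOT16 and SOT17 were at 53.3 to 78.6 CPM and 35.9 to 50.5 CPM, and none of their folds between temperature labels reached 2. On the list of 10 aliphatic glucosinolate genes, SOT18 was the only one at least 2-fold higher in either pair. SOT18 overlaps another annotated gene, AT1G74088, on the same strand, and the counts do not say from which of them a read came.

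AT3G56210, annotated as an ARM repeat protein, was at 10.7, 7.45, 82.7 and 57.7 CPM with the 20 °C libraries first and Col-0 before sme1-1 at each temperature, the order kept below where 4 values are given. Its folds of 7.71 (7.01 to 8.49) and 7.75 (6.91 to 8.70) were as close to each other as those of SOT18. Between the genotype labels it was 1.44-fold and 1.43-fold lower in sme1-1, and both 4 °C libraries were far above both 20 °C libraries. Reads covered 76.5% and 77.5% of its length in the 20 °C libraries and 90.2% and 91.7% in the 4 °C libraries.

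The 10 members with a part in transcription had log2 ratios of 1.08 to 3.26 in the Col-0 pair and 1.03 to 3.69 in the sme1-1 pair. NAC044 (AT3G01600), a NAC factor that acts with the DNA damage regulator SOG1 in halting the cell cycle, was at 0.583, 0.756, 4.96 and 10.3 CPM, 8.52-fold (5.67 to 13.3) and 13.7-fold (9.66 to 20) higher at 4 °C. NAC103 (AT5G64060), known from the endoplasmic reticulum stress response, was at 0.740, 1.13, 3.08 and 2.37 CPM. Both were low at 20 °C and higher at 4 °C in each genotype label. The DNA damage list, which holds neither of them, had 9 measured genes. Of these, 0 were at least 2-fold higher at 4 °C in either pair. On the endoplasmic reticulum stress list, which does not hold NAC103, 0 of 8 measured genes were in the Col-0 pair and 1 in the sme1-1 pair. Of all genes, 0.784% were in the Col-0 pair and 3.13% in the sme1-1 pair, so such short lists say little.

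LBD40 (AT1G67100) and LBD26 (AT3G27940) belong to the plant-specific LOB domain family. LBD40 was at 0.941, 0.711, 7.02 and 7.29 CPM and LBD26 at 0.448, 0.511, 4.71 and 2.50 CPM, with LBD26 10.5-fold (6.64 to 17.5) higher in the Col-0 pair and 4.89-fold (3.11 to 8.01) in the sme1-1 pair. Both 4 °C libraries exceeded both 20 °C libraries for each of them. LBD40 reads covered 53.1% of the gene length in Col-0 4 °C and 42.6% in sme1-1 4 °C, so its reads came from part of the annotated gene.

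Rap2.6L (AT5G13330), an AP2/ERF factor linked to wounding and regeneration, was at 1.64, 1.18, 11.4 and 6.71 CPM, which gave 6.99-fold (5.46 to 9.05) and 5.69-fold (4.25 to 7.77). MAF5 (AT5G65080), a MADS box relative of the flowering repressor FLC, was at 4.68, 4.78, 10.5 and 15.4 CPM, 2.24-fold (1.90 to 2.65) and 3.22-fold (2.76 to 3.77) higher. MAF5 was level between the genotypes at 20 °C and is the 1 member among the 10 measured flowering genes. On that list 1 gene was at least 2-fold higher in the Col-0 pair (0.784% of all genes) and 3 in the sme1-1 pair (3.13%). In each pair 1 was lower. The lower gene was FLC itself, at 3.29, 3.82, 0.255 and 0.641 CPM, with log2 ratios of -3.46 and -2.49, opposite in direction to MAF5.

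BOA (AT5G59570), a relative of the evening clock protein LUX, was at 0.628, 0.534, 1.74 and 1.28 CPM. The homeodomain-like gene AT2G38250 was at 0.785, 0.445, 2.04 and 2.18 CPM, and the gene AT1G15790, similar to Mediator subunit 15a, at 1.52, 0.645, 3.29 and 1.99 CPM. In these 3 members both 4 °C libraries were above both 20 °C libraries, from 60 to 155 reads against 20 to 68. The PHD finger gene AT5G58610 was the 1 gene of the group at least 2-fold higher with the sme1-1 label at both temperatures, at 0.493, 1.27, 1.70 and 7.24 CPM, and NAC044 was 2.08-fold (1.78 to 2.45) higher with that label at 4 °C.

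Pseudogenes made up 5 of the 67 members (7.46%), against 0.587% of the 17218 genes. SADHU3-2, AT5G34790, AT5G34800 and AT5G01335 met the level filter only through the 4 °C libraries, in which the rule needs them to be high. The share was not compared with genes of matched level and is a description. SADHU3-2 (AT3G42658), a copy of a non-coding retrotransposon, had 0 reads in Col-0 20 °C, 2 in sme1-1 20 °C, 74 in Col-0 4 °C and 175 in sme1-1 4 °C. It was at least 23.3-fold higher in the Col-0 pair, taking 3 reads as the upper limit of the empty library, and 84.1-fold (22.9 to 700) higher in the sme1-1 pair. Reads covered 92.5% and 97.4% of its length in the 4 °C libraries. It was near 0 in both 20 °C tables, and reads lay over nearly its whole length in both tables labelled 4 °C.

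AT5G34800 and AT5G34790 carry neighbouring locus numbers on chromosome 5. AT5G34800 was at 0.381, 1.00, 2.99 and 4.44 CPM and AT5G34790 at 0.560, 0.645, 2.23 and 2.16 CPM. AT5G01335 was at 0.650, 1.16, 2.76 and 4.15 CPM. In these 3 pseudogenes both 4 °C libraries exceeded both 20 °C libraries.

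AT4G16870 was the most abundant pseudogene, with 373, 706, 882 and 2823 reads, 2.24-fold (1.98 to 2.53) higher in the Col-0 pair and 3.84-fold (3.54 to 4.18) in the sme1-1 pair. Since the counts hold uniquely mapped reads, copies of a repeat that cannot be told apart add nothing to them. AGO3 (AT1G31290) encodes an ARGONAUTE, the class of proteins that carry small silencing RNAs, and was at 0.628, 0.245, 1.44 and 1.92 CPM. It was higher in both 4 °C libraries, by 2.3-fold (1.46 to 3.71) and 7.86-fold (4.19 to 16.3).

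A pair of members are annotated as relatives of splicing proteins. AT1G14640 encodes a SWAP/surp domain protein, a domain found in the SF3a part of the U2 particle, and was at 1.28, 1.27, 2.63 and 4.27 CPM. Its neighbour AT1G14650 was at 73.7, 107, 83.4 and 118 CPM, 1.13-fold and 1.1-fold higher at 4 °C. How reads that fit both genes were treated is not given in the sources used here, and the low counts of AT1G14640 are uncertain for that reason. AT5G45990, annotated as a crooked neck protein, was at 0.448, 0.200, 1.70 and 2.07 CPM, from 20, 9, 80 and 97 reads. The more abundant AT5G41770 was at 52.3, 72.2, 51.7 and 66.1 CPM. Neither abundant relative differed by 2-fold between temperature labels. On the list of 24 measured splicing regulators, 0 were at least 2-fold higher in the Col-0 pair and 1 in the sme1-1 pair. Of all genes, 0.784% and 3.13% were.

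The threonyl-tRNA synthetase gene AT1G17960 was at 0.448, 0.133, 2.35 and 5.62 CPM, 5.25-fold (3.24 to 8.93) higher in the Col-0 pair and 42.1-fold (19.1 to 116) in the sme1-1 pair, where the lower library held 6 reads. AT4G03292, of the ribonuclease H-like family, and AT1G61970, of the mitochondrial transcription termination factor family, were members by narrow margins, with smaller log2 ratios of 1.02 and 1.01. AT3G62460, annotated as a putative endonuclease or glycosyl hydrolase, had 1.02. These 3 were among the 4 that left the set with TMM scaling.

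**Figure D3:**
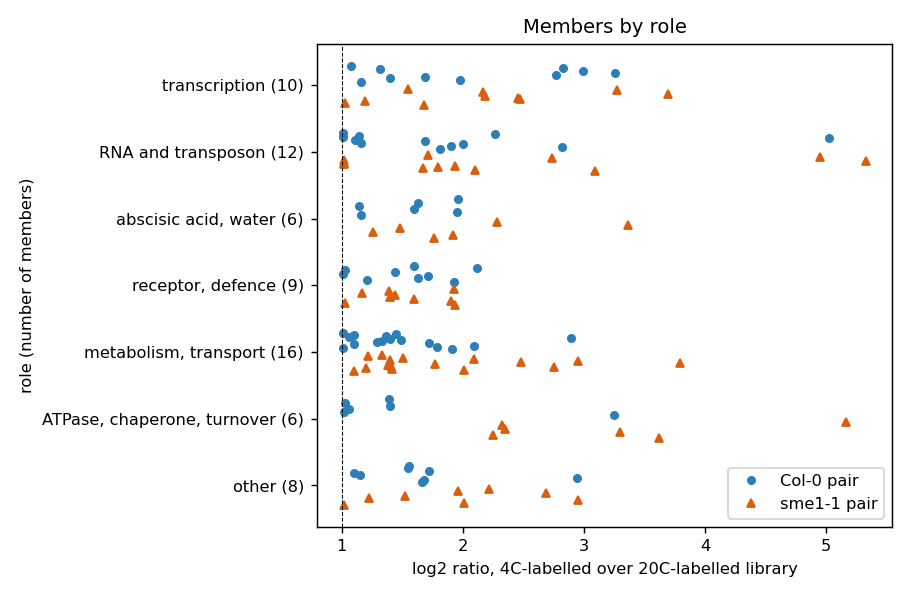
Each member appears as a circle (log2 ratio of 4 °C over 20 °C in the pair labelled Col-0) and a triangle (the same in the pair labelled sme1-1), in rows by role. The 6 members of the row of ATPases, chaperones and turnover all have the larger ratio in the sme1-1 pair, as do 46 of all 67 members. Rows were formed by hand with the values known, and the dashed line marks the threshold of 1 that chose the members.

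Several members are known to respond to abscisic acid or water deficit. LTI65 (AT5G52300, also RD29B) is a classic abscisic acid marker and HAI2 (AT1G07430) a phosphatase of the clade that holds the abscisic acid signal in check. Their upstream regions are shown because the ABRE core was the motif whose share in members stood furthest above that in all genes, a choice made after the shares were seen. The 250 bases before the annotated start are given 5′ to 3′ on the strand of the gene, from RefSeq assembly TAIR10.1, with ACGTG and its reverse complement CACGT in capitals.
LTI65 (plus strand, chr5:21236771-21237020): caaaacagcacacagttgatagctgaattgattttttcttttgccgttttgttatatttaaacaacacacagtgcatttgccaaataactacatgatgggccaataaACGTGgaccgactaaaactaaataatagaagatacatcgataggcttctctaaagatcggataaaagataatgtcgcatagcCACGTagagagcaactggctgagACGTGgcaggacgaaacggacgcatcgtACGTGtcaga
HAI2 (minus strand, chr1:2282829-2283078): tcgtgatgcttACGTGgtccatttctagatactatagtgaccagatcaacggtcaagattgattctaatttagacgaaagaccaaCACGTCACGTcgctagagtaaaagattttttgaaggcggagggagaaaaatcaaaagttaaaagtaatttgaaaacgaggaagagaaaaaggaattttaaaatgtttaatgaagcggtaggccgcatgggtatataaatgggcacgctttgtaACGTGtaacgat

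Each of these stretches holds the core 4 times. Of the other members placed in the abscisic acid and water deficit role, SAG29 and AT2G47780 hold it in such a window. TSPO and AT3G53980 do not. In windows of the same length, ACGTG on either strand was found before 28 of 67 members (41.8%) and before 23.2% of 17129 genes with such a window. The core is part of the G-box CACGTG, which was found before 7.46% of members and 7.44% of all genes. The CRT/DRE core CCGAC was before 16.4% of members and 13.2% of all genes, and the evening element core AATATCT before 16.4% and 10.2%. Shares were 50.7% and 44.0% for the W-box core TTGAC, 8.96% and 9.19% for the heat shock core GAANNTTC, 46.3% and 45.3% for TATAAA, and 17.9% and 17.7% for the site II motif TGGGCC. A match is a description of letters, not a bound site.

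LTI65 was at 0.314, 8.65, 0.764 and 29.5 CPM, 2.43-fold (1.28 to 4.88) higher at 4 °C in the Col-0 pair and 3.41-fold (3.04 to 3.82) in the sme1-1 pair. The library labelled sme1-1 20 °C exceeded Col-0 4 °C, so the temperature sets overlapped, and the genotype labels differed 27.6-fold (16.2 to 50.9) at 20 °C and 38.6-fold (27.7 to 55.3) at 4 °C. HAI2 was at 0.224, 0.756, 1.02 and 3.87 CPM, 4.54-fold (2.27 to 10.1) and 5.12-fold (3.53 to 7.61) higher at 4 °C. The abscisic acid list, which holds LTI65 but not HAI2, had 10 measured genes. Of these, 1 was at least 2-fold higher in the Col-0 pair (0.784% of all genes) and 3 in the sme1-1 pair (3.13%). In either pair 0 were lower.

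TSPO (AT2G47770), a membrane protein that abscisic acid and salt induce, was read 4, 14, 18 and 171 times, at 0.0897, 0.311, 0.382 and 3.65 CPM. Next to it on the same strand, with no annotated gene between, lies AT2G47780, annotated as a rubber elongation factor protein, at 1.73, 2.76, 3.86 and 7.78 CPM. In both neighbours the library labelled sme1-1 4 °C was the highest, and they were the 1 pair of members adjacent in the annotation. SAG29 (AT5G13170, SWEET15), a sugar exporter of senescing leaves, was at 3.05, 2.29, 11.9 and 8.78 CPM, with folds of 3.90 (3.23 to 4.74) and 3.84 (3.08 to 4.81) between temperature labels. It was 1.33-fold (1.02 to 1.74) and 1.35-fold (1.19 to 1.54) lower with the sme1-1 label. The lipid transfer family gene AT3G53980 was at 0.807, 2.31, 2.55 and 5.62 CPM.

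Receptors and defence genes gave 9 members. RLP19 (AT2G15080), RLP32 (AT3G05650) and RLP46 (AT4G04220) are receptor-like proteins, a class of surface receptors with leucine-rich repeats and no kinase domain. RLP19 was at 10.1, 41.6, 20.4 and 110 CPM, RLP32 at 3.90, 7.43, 12.2 and 27.8 CPM and RLP46 at 7.46, 11.3, 17.3 and 23.2 CPM. In RLP32 and RLP46 both 4 °C libraries were above both 20 °C libraries, while RLP19 was higher in sme1-1 20 °C than in Col-0 4 °C. RLP46 reads covered 67.3% to 70.5% of its length in every library, and RLP32 and RLP46 each overlap a gene on the opposite strand.

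IOS1 (AT1G51800), a receptor kinase that takes part in immune signalling, was read 6, 38, 24 and 157 times, at 0.134, 0.845, 0.509 and 3.35 CPM. AT5G11410, a kinase gene, was at 0.807, 0.734, 3.22 and 2.95 CPM, with folds of 4.00 (2.76 to 5.92) and 4.02 (2.73 to 6.07). The S-locus lectin kinase gene AT1G61400 was at 1.03, 1.67, 2.16 and 3.82 CPM. Only the first of these 3 had overlapping temperature sets.

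The chitinase family gene AT2G43620 showed the widest distance between genotype labels among the members. It was at 0.560, 42.0, 1.95 and 127 CPM, 3.48-fold (2.22 to 5.66) and 3.03-fold (2.88 to 3.20) higher at 4 °C, and 75-fold (50.6 to 116) and 65.3-fold (53.2 to 81.1) higher with the sme1-1 label. The mannose-binding lectin gene AT1G52100 went the other way, at 3.12, 0.0667, 13.7 and 0.256 CPM, with 3 and 12 reads in the sme1-1 libraries. AT1G73325, a Kunitz type protease inhibitor gene, was at 0.919, 0.133, 2.59 and 0.449 CPM. These last 2 were higher at 4 °C within each genotype label and lower in both libraries labelled sme1-1.

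Metabolic enzymes and transporters formed the largest group with 16 members, whose log2 ratios lay between 1.01 and 2.89 in the Col-0 pair and between 1.1 and 3.79 in the sme1-1 pair. ACC2 (AT1G36180), a plastid acetyl-CoA carboxylase of fatty acid synthesis, was at 8.29, 5.80, 22.8 and 13.5 CPM, 2.75-fold (2.44 to 3.11) and 2.33-fold (2.02 to 2.71) higher. Its cytosolic neighbour ACC1 was at 167 to 197 CPM in all 4 libraries. The covered part of ACC2 rose from 69.9% to 95.9% in the Col-0 pair and from 58.0% to 84.7% in the sme1-1 pair.

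AT1G73480, an alpha/beta-hydrolase gene, was at 21.7, 38.0, 45.2 and 100 CPM, and YSL2 (AT5G24380), a transporter of metals bound to nicotianamine, at 13.4, 6.27, 27.0 and 25.4 CPM. YSL2 was at nearly the same level in both 4 °C libraries and differed 2.13-fold between the genotypes at 20 °C. GPT2 (AT1G61800), which brings glucose 6-phosphate into plastids, was at 0.740, 1.22, 1.99 and 5.36 CPM. PORA (AT5G54190), a light-dependent enzyme of chlorophyll synthesis, was at 0.538, 2.76, 2.16 and 5.98 CPM, and its temperature sets overlapped.

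PUP1 (AT1G28230), a purine and cytokinin transporter, was at 1.3, 10.2, 2.67 and 25.9 CPM, and LOG5 (AT4G35190), of the family that activates cytokinins, at 0.247, 0.845, 0.976 and 2.35 CPM. DTX1 (AT2G04040), a MATE efflux carrier, was read 6, 10, 22 and 174 times, at 0.134, 0.222, 0.467 and 3.72 CPM, with 16.7-fold (8.88 to 35.5) in the sme1-1 pair. The library labelled sme1-1 4 °C was the highest for each of these 3. CSLA01 (AT4G16590), a glucomannan synthase relative, was highest in Col-0 4 °C instead, at 0.829, 0.289, 3.69 and 0.726 CPM.

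The glycosyltransferase gene AT2G41640 was at 3.29, 3.42, 8.38 and 11.8 CPM, the acyltransferase gene AT1G78990 at 1.52, 1.18, 4.09 and 6.82 CPM and the pectin lyase-like gene AT3G15720 at 1.41, 2.05, 4.77 and 5.51 CPM. Tic20-IV (AT4G03320), a subunit of the protein import pore of chloroplasts, was at 0.762, 0.667, 1.70 and 4.76 CPM. NAT7 (AT1G60030), of the nucleobase-ascorbate transporter family, and BGLU15 (AT2G44450), a beta glucosidase, lay between 0.689 and 2.50 CPM. In these 6 members both 4 °C libraries were above both 20 °C libraries.

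The 6 members among ATPases, chaperones and protein turnover all had the larger ratio in the sme1-1 pair, as did 46 of all 67 members. The median log2 ratio of the 6 was 2.83 there, against 1.23 in the Col-0 pair. The rule used these ratios and the group was formed by hand with the values known, so this is a description. AT2G18193, a P-loop ATPase gene, was at 2.11, 0.578, 5.6 and 22.5 CPM, 2.66-fold (2.09 to 3.40) and 38.9-fold (26.4 to 59.8) higher at 4 °C. Its neighbour AT2G18190, which fell below the level filter, was read 0, 2, 34 and 147 times. AT2G18193 is 1 of 2 members within 2 Mb of SME1, the distance within which 3.17% of all genes lie. The second P-loop ATPase gene, AT3G28580, was at 1.3, 0.600, 2.71 and 3.21 CPM.

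AT5G51440, an HSP20-like chaperone gene, was at 3.72, 0.622, 7.83 and 6.56 CPM, 2.1-fold (1.75 to 2.54) higher in the Col-0 pair and 10.5-fold (7.15 to 16.1) in the sme1-1 pair. The library labelled sme1-1 20 °C stood apart as the low one. The heat shock list, which does not hold AT5G51440, had 7 measured genes. At 4 °C, 0 of them were at least 2-fold higher in either pair and 1 was lower in the sme1-1 pair. Of all genes, 0.784% were higher in the Col-0 pair and 3.13% in the sme1-1 pair. The RING finger gene AT5G60250 had the largest ratios after SADHU3-2 by the smaller of both, at 0.717, 1.33, 7.23 and 17 CPM, 10.1-fold (7.01 to 15.0) and 12.7-fold (9.78 to 16.8). The F-box gene AT5G56370 was at 0.852, 0.511, 1.78 and 2.63 CPM and the ankyrin repeat gene AT3G28880 at 0.426, 0.445, 1.21 and 2.48 CPM.

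Among the members without an assigned role, the TRAF-like gene AT3G58270 was at 1.5, 1.60, 4.92 and 6.6 CPM and the DUF295 gene AT1G30160 at 1.91, 0.867, 5.71 and 4.23 CPM. AT5G14560 was at 0.852, 6.56, 2.80 and 13.4 CPM with 39.9% to 57.3% of its length covered, and it overlaps AT5G14550 on the opposite strand. The reticulon gene AT3G18260, the DUF567 gene AT2G05910, AT3G24780 and AT1G36622 had 5 to 44 reads at 20 °C and 20 to 136 at 4 °C.

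The contrast between genotype labels was not used in the choice of members. At 20 °C, 17 of the 67 were higher with the sme1-1 label by 2-fold or more, against 8.90% of all 17218 genes, and 11 were at least 2-fold lower, against 6.99%. At 4 °C, 28 were at least 2-fold higher, against 11.7%, and 3 lower, against 7.74%. With 0.5 and 1 CPM added in place of 0.05, the 17 became 9 and 7 and the 11 became 5 and 2. The members were not compared with genes of matched level. TSPO, IOS1, AT1G36622, LOG5 and DTX1 passed the filter on mean level through the library labelled sme1-1 4 °C. They were below 1 CPM in the other 3 libraries. AT1G73325 and CSLA01 passed it in the same way through Col-0 4 °C. Further members passed it only through the libraries of 1 genotype label. Among them were LTI65, HAI2 and AT4G03292 with the sme1-1 label and AT1G52100 with the Col-0 label. These counts between genotype labels are therefore a description, not support for a direction. The median log2 ratio of sme1-1 over Col-0 was 0.10 at 20 °C and 0.56 at 4 °C over the members, against 0.03 and 0.09 over all genes.

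The genotype labels split the members in distinct ways. At both temperatures 28 of the 67 stayed within 2-fold, as did 76.3% of all genes, among them SOT18, AT3G56210, LBD40, Rap2.6L, SAG29, ACC2 and MAF5. A further 15 were at least 2-fold higher in both libraries labelled sme1-1, against 7.13% of all genes. They include AT2G43620, LTI65, PUP1, RLP19, IOS1, TSPO, HAI2, PORA and LOG5. IOS1, TSPO, LOG5 and AT1G36622, which is also of this group, passed the level filter through sme1-1 4 °C. LTI65, HAI2 and AT4G03292, also of this group, passed it only through the libraries labelled sme1-1. In those labelled Col-0 they were at 0.314 and 0.764, 0.224 and 1.02, and 0.359 and 1.27 CPM. The count is therefore a description. AT1G52100, AT1G73325 and CSLA01 were at least 2-fold lower in both libraries labelled sme1-1, as were 4.38% of all genes. Of these, AT1G73325 and CSLA01 passed the filter through Col-0 4 °C, and AT1G52100 passed it only through the libraries labelled Col-0. Opposite directions past 2-fold were found in 2 members, AT1G17960 and AT2G18193, against 0.0639% of all genes, and the other 19 passed 2-fold at 1 temperature. A change of the genotype-label ratio between temperatures equals the difference of the temperature-label ratios that the rule used. The 2 members with opposite directions are therefore a description.

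**Figure D4:**
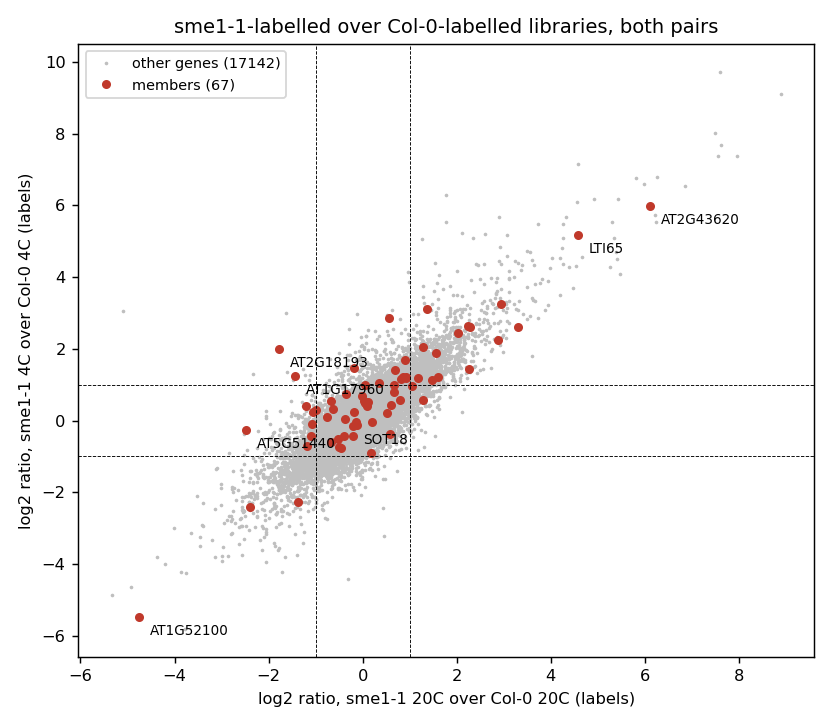
Each point is a gene, placed by its log2 ratio of sme1-1 over Col-0 at 20 °C (horizontal) and at 4 °C (vertical), with dashed lines at -1 and 1 and the 67 members in red. Members lie along the same diagonal as other genes, from AT1G52100 (-4.76 and -5.49) to AT2G43620 (6.11 and 5.99), with AT2G18193 and AT1G17960 in the upper left.

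An additive model with a term for the temperature label and one for the genotype label was fitted to all 4 libraries. In edgeR's quasi-likelihood test the genotype-label term called 23 of the 67 members higher with the label sme1-1 (20.5% of all 17218 genes were called higher) and 10 lower (20.3% of all genes), at a Benjamini-Hochberg adjusted p below 0.05. AT2G43620 had a log2 difference of 6.02 ± 0.21 (SE; edgeR, adjusted p = 1.76e-09), PUP1 of 3.07 ± 0.21 (adjusted p = 6.81e-07) and LTI65 of 5.0 ± 0.26 (adjusted p = 6e-08), each higher in sme1-1 in 2 of 2 pairs. AT1G52100 was lower by this test (-5.75 ± 0.35, edgeR adjusted p = 2.35e-07). LTI65 was at 0.314 and 0.764 CPM with the Col-0 label, and AT1G52100 at 0.0667 and 0.256 CPM with the sme1-1 label. Each met the level filter only through the genotype label in which it was high, so its p-value is a description. For SOT18 the difference was -0.26 ± 0.15 (edgeR adjusted p = 0.196) and for LBD40 -0.19 ± 0.27 (adjusted p = 0.588), which does not show that they are equal. DESeq2 called 20 members higher (16.2% of all genes) and 6 lower (15.2%). With 1 residual degree of freedom, noise and unequal responses to the labels cannot be told apart, and the standard error was wide in members such as AT2G18193 (0.46 ± 0.60). Members that passed the level filter through 1 library or 1 genotype label were among those called by edgeR. The numbers of members called are therefore a description.

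Of 257 entries on 27 hand-written lists of pathway and marker genes, 3 were members: LTI65 for abscisic acid, SOT18 for aliphatic glucosinolates and MAF5 for flowering time. Members made up 0.389% of the 17218 genes, a share at which a list of 15 genes would seldom hold any. That a list holds no member is therefore not read as a result. Counts given above for such lists describe the labelled libraries. The mitochondrial retrograde list, 1 of the 27, holds no member and is given only as a description, with 5 of its 8 entries paired. Its 4 measured genes were all at least 2-fold higher at 4 °C in the sme1-1 pair, against 3.13% of all genes. In the Col-0 pair 0 were, against 0.784%. Among the entries left out, NAC013 was below 2-fold in the sme1-1 pair (log2 ratio 0.94) and UPOX above it (1.86). AT12CYS-2 fell below the level filter. By position, chromosomes 1 to 5 held 20, 10, 13, 6 and 18 members, or 29.9%, 14.9%, 19.4%, 8.96% and 26.9%, where all genes had 26.2%, 15.0%, 19.8%, 15.2% and 23.3%.

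Read coverage of the gene body rose with the counts. In the Col-0 pair 64 of 67 members had a larger part of their length covered in the 4 °C library, against 50.7% of all genes, and in the sme1-1 pair 59 of 67, against 60.4%. The median share covered was 73.1%, 71.7%, 88.9% and 91.2% over the members and 94.1%, 94.2%, 94.3% and 95.4% over all genes. More reads cover more of a gene, so this measure is not independent of the levels that chose the members. The median length of a member was 1616 bases, against 1598 bases for all genes, and the median number of exons 3 against 5.

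At the threshold itself, RLP19, PUP1 and AT1G61970 were just inside, with log2 ratios of 1.01 in the Col-0 pair. Just outside were RLP35, with 0.98 and 1.91, AT3G03030, with 0.98 and 0.99, and AT5G44572, with 1.35 and 0.99. RLP35 is a further receptor-like protein gene, at 1.95, 1.07, 3.90 and 4.15 CPM. KIN1, a cold-regulated gene, was at 0.852, 428, 1.72 and 974 CPM, and its log2 ratio of 0.97 in the Col-0 pair kept it out of the set.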

How the data were processed

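RNA was measured in 4 leaf libraries, 1 per combination of genotype and temperature label. The authors deposited, per gene, a count of uniquely mapped reads, the gene length, the percent of that length covered by reads, and RPKM, per the file headers. RPKM recomputed from the count, length and library total differed by at most 4e-14 of the value. The submitters' processing notes name TAIR10. For the aligner, the counting rule and the use of strand, nothing is given in the sources used here. The counts of each table summed to 44.6 M, 45.0 M, 47.2 M and 46.8 M.

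Genes that a table does not list were set to 0 there. CPM was the count divided by the library total, and log2 ratios added 0.05 CPM to each level. Folds and their exact (Clopper-Pearson based) 95% intervals carry no addition and cover counting error only. A count of 0 was set at 3 counts for a lower bound. Symbols, products, overlaps and upstream windows of 250 bases came from RefSeq TAIR10.1, by locus code. It matched 22861 of 23049 codes. Its coordinates were used only together with its own sequence. Roles were assigned by hand from the annotation, with the values known. Of 266 list entries, 9 whose code and symbol the annotation does not pair were left out.

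The additive model used edgeR 4.0.16 with TMM scaling (common dispersion 0.021, prior degrees of freedom 11.5), and DESeq2 1.42.0 as an alternative. Standard errors are the size of the log2 difference divided by the square root of edgeR's F. On simulated data of the 17218 genes, the genotype-label term recovered 86 of 100 genes changed 2-fold and 100 of 100 changed 4-fold, with 8 false calls. The simulation gave every gene the same dispersion, near the common value, and no effect of the temperature label. It therefore does not show how the test behaves on the members, which were chosen by temperature-label ratios and are mostly weakly expressed. Tables and figures were made with scipy 1.17.1, matplotlib 3.10.9, pandas 2.3.3 and numpy 2.4.6 in Python 3.11.15, and models in R 4.3.3. The members and lists were chosen with earlier results of these data known. Genes named were SME1 and SME2, the members with the largest ratios, levels and genotype-label differences, those nearest the threshold and those on a list. Other members, and the genes set beside them, were named after their values were seen.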

Additional observations from a re-analysis of the deposited data

Results flagged for a closer look

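In 2 members the ratio between the genotype labels was past 2-fold in opposite directions at the 2 temperature labels, as in 0.0639% of all 17218 genes. The log2 ratio of sme1-1 over Col-0 in AT1G17960, a threonyl-tRNA synthetase gene, was -1.44 at 20 °C and 1.24 at 4 °C. In AT2G18193, a P-loop ATPase gene, it was -1.78 at 20 °C and 2.0 at 4 °C. The lowest library held 6 reads of AT1G17960 and 26 of AT2G18193. A change of this ratio between temperatures equals the difference of the temperature-label ratios that chose the members. The share of all genes is therefore given as a description. With 1 library per group, neither difference was tested.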

How the results depend on the processing

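The number of members depended on how low levels were treated. It was 67 as reported, 33 with 0.5 CPM added in the ratio, 24 with 1 CPM, 20 with a mean of at least 5 CPM and 250 without a filter. A log2 ratio of at least 1.5 left 25 and of at least 2 left 10. TMM factors gave 68 and DESeq2 size factors 66, and each kept 63 of the 67. TMM lost AT1G61970, AT3G62460, AT4G03292 and AT5G14560 and gained KIN1 and 4 others. With 0.5 and 1 CPM added, members at least 2-fold higher in sme1-1 at 20 °C numbered 9 and 7 in place of 17, and those lower 5 and 2 in place of 11. DESeq2 called 6 members lower by the genotype-label term in place of 10. The other counts stayed within 1.5 times, and none of 134 single-gene ratios left its counting interval or changed sign with TMM. No paired analysis was possible because each group has 1 library and the labels carry no replicate number.

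Depth of 44.6 M to 47.2 M reads limits the weak members most, since 46 of 67 had fewer than 50 reads in a library labelled 20 °C. No interval covers variation between plants, and leaving out a library was not possible with 1 per group.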
